A study of Mus musculus with 2 samples.

Results

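Interleukin-17 cytokines, receptors of the cytokines that induce them and a transcription factor of the same program were followed as 7 genes in γδ T cells sorted from mouse liver and thymus. The genes were Il17a, Il17f, Il22, Il23r, Il1r1, Il17re and Rora, taken by symbol from the 27998 genes of the deposited UMI tables, where each symbol had 1 row. Single-cell RNA was measured in 1 hepatic and 1 thymic library from wild-type, untreated C57BL/6J mice that were 8 weeks old. Cells were sorted on CD3e and the γδ T cell receptor, and the thymocytes had been depleted of CD4- and CD8-bearing cells on magnetic beads before sorting. Cells came from several mice, and how these were divided between the libraries is not given in the sources used here. With 1 library per tissue, tissue and library cannot be told apart, no difference between them has a replicate check, and every interval below is a 95% interval for counting error only.

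γδ T cells that make interleukin-17, called γδT17 cells, acquire this program largely in the thymus and then settle in barrier tissues and in the liver. IL-17A and IL-17F are related cytokines that act on epithelial and stromal cells and draw in neutrophils, and IL-22 acts on epithelial cells and hepatocytes. γδT17 cells respond to IL-23 and IL-1 without antigen, through receptors that contain the products of Il23r and Il1r1. Il17re encodes the receptor chain for IL-17C, and Rora encodes a nuclear receptor of the ROR family, which takes part in type 17 differentiation.

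Il17a and Il17f lie beside each other on chromosome 1 of GRCm38, the assembly that mm10 names, at 20730905 to 20734496 on the plus strand and 20777146 to 20790617 on the minus strand. Il1r1 lies on the same chromosome at 40225080 to 40317257, Il22 on chromosome 10 at 118204942 to 118210047, and Rora on chromosome 9 at 68653786 to 69388246. Il23r and Il17re lie on chromosome 6, at 67422932 to 67491855 and at 113458484 to 113470758. Gm38070 overlaps Il1r1 on the same strand and the antisense Gm15511 overlaps Rora, and any effect of these overlaps on the counts was not tested. The promoters of the cytokine and receptor genes are shown because their transcripts were found in the same cells and because ROR proteins bind DNA that holds AGGTCA. Over the 250 bases before the RefSeq start sites (GRCm38.p6, written 5′ to 3′ on the strand of the gene), AGGTCA or its reverse complement occurred for Il17a, Il17f and Il23r, and these 3 windows are printed with the match in capitals. It lay in 4607 of 32851 such windows over all genes, 14.0%, so the match is a description only, and binding was not tested. The windows are chr1:20730655-20730904 on the plus strand for Il17a, chr1:20784271-20784520 on the minus strand for Il17f and chr6:67491856-67492105 on the minus strand for Il23r. The RefSeq start used for Il17f lies inside the span of the gene given above.
Il17a: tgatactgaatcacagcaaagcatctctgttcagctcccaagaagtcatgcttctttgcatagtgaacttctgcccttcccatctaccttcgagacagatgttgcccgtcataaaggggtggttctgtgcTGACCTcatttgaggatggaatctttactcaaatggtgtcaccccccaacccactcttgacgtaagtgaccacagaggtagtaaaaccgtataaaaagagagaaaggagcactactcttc
Il17f: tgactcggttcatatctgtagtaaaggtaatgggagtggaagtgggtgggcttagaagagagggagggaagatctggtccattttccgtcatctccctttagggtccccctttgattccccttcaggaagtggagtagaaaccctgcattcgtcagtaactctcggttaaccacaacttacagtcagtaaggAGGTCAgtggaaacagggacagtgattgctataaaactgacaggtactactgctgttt
Il23r: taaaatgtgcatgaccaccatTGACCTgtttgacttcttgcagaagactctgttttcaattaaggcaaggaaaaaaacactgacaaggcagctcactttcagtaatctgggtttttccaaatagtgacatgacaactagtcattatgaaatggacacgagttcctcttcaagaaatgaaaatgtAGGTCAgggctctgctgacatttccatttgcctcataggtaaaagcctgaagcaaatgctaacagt
Il23r held 2 matches, at 229 and 66 bases before its start, whereas Il17a held 1 at 120 bases and Il17f held 1 at 58 bases. The windows of Il22, Il1r1, Il17re and Rora held none.

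Of 8658 hepatic barcodes, 8075 had 800 to 4000 genes and at most 6% mitochondrial UMIs and were kept. The thymic library kept 4351 of 4541 barcodes. Median depth was 2741 UMIs per hepatic and 3271 per thymic cell, and 60 barcode sequences occurred in both libraries, of which 56 were kept. Of the cells classed as γδT17-like below, 5 hepatic and 3 thymic ones carried such a barcode, and the hepatic over thymic ratio of Il17f was 0.437 with them and 0.432 without. Cells were clustered together without the 7 members and without 41 listed genes of their pathway, which gave 12 clusters. A single cluster carried the γδT17 markers (Tmem176a, Tmem176b, Il7r, Ccr6, Serpinb1a and Aqp3) with a mean log2 ratio of 3.64 over all other cells and is called γδT17-like. It held 792 hepatic cells (9.81% of the library, 9.17% to 10.5%) and 166 thymic cells (3.82%, 3.27% to 4.43%), with median depths of 2727 and 2779 UMIs. The label of γδ T cells could be checked only in part: Cd3e was found in 87.4% of hepatic and 84.9% of thymic γδT17-like cells, Cd3g in 96.1% and 97.0%, and γδ receptor genes were not analysed here. Markers of other cells were summed in the hepatic and thymic class, in CPM as defined below. Of 7 myeloid markers 6 and 3 were detected, at 327 and 263 CPM, with Adgre1 at 0 in both. Of 5 markers of type 2 innate lymphoid cells 2 were detected in each, at 179 and 127 CPM, with Il1rl1, Il5 and Il13 at 0 in both. NK cell markers stood at 69.9 and 12.3 CPM, αβ T cell markers at 46.2 and 4.08 CPM with Cd4 and Cd8a at 0 in the thymus, endothelial and stromal markers at 35.0 and 32.7 CPM, and hepatocyte markers at 8.44 and 8.17 CPM. Naming markers of other classes differed between the tissues too: the 5 C1-like markers summed to 56.3 CPM in the hepatic and 351 CPM in the thymic class, and the 4 C5-like markers to 1441 and 24.5 CPM. The part of all these markers in the values below was not tested. Clusters called C1-like, C3-like, C4-like, C5-like, C7-like and C8-like take their labels from clusters of the study. Their naming lists also hold genes that the text of the study does not name, such as Igfbp4, Dapl1, Cd40lg and Klrg1. C4-like and C5-like cells were nearly all hepatic and C1-like cells nearly all thymic. Such a cluster may therefore be its library as much as a cell type.

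All 7 members were highest in γδT17-like cells in both libraries, among 15 class and library groups of at least 20 cells. Each level is a CPM: the UMIs a gene had in a group of cells were added up, divided by all UMIs of the group and scaled to 1000000. Of 4352 Il17a UMIs in kept hepatic cells, 4010 lay in γδT17-like cells, a share of 92.1% (91.3% to 92.9%), and for Il17f, Il22, Il23r, Il1r1 and Il17re this hepatic share was between 87.3% and 93.6%. Rora was broader, with 41.5% of hepatic UMIs and 7.14% of thymic UMIs in the class. In the thymus Il17a (88.7%) and Il23r (84.6%) were as concentrated, whereas Il17f (56.4%), Il17re (28.4%) and Il1r1 (25.0%) had many UMIs in other cells. All 5 thymic Il22 UMIs lay in γδT17-like cells.

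**Figure D1:**
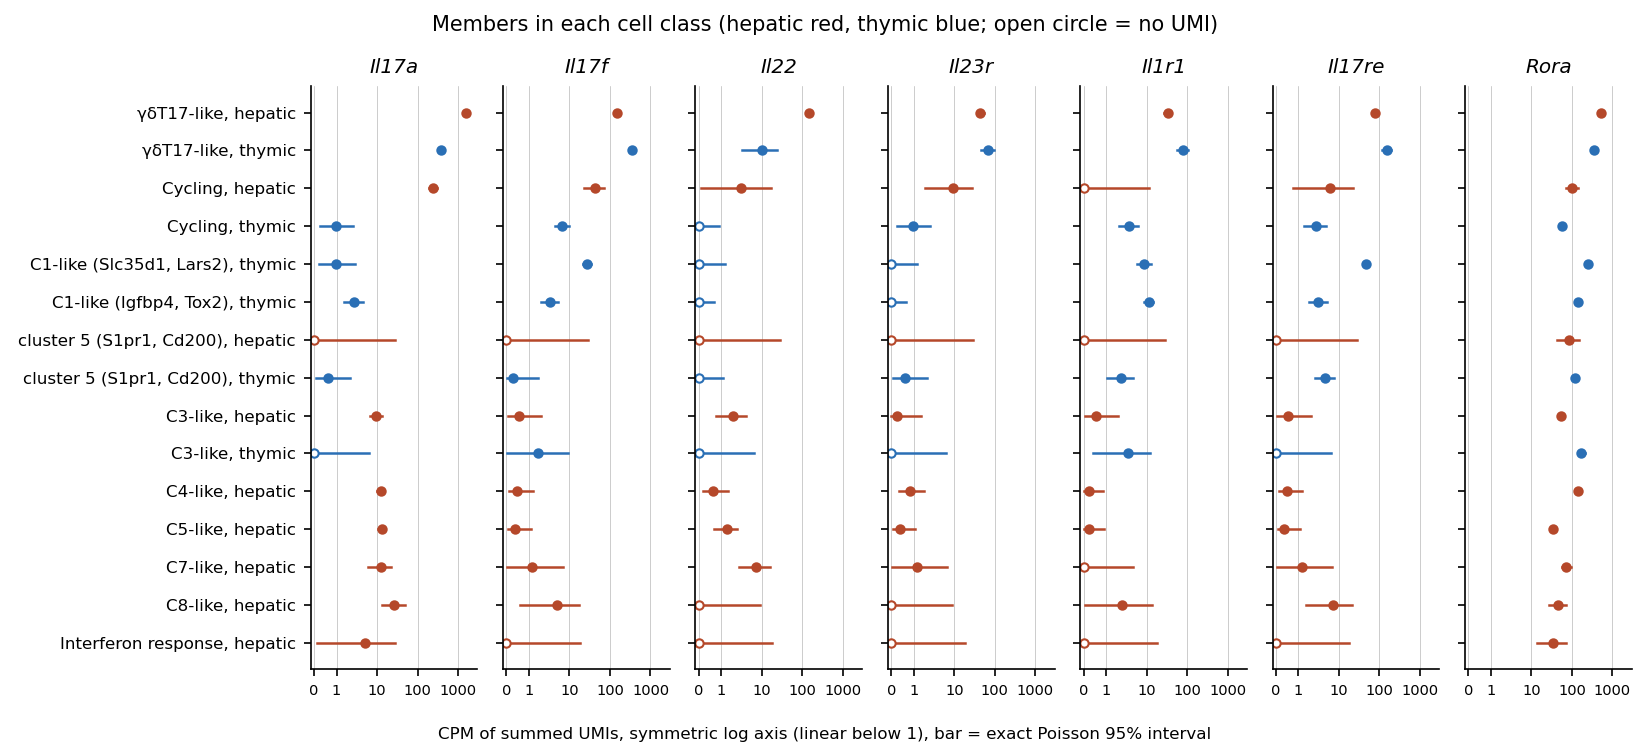
Level of each member (CPM, symmetric log axis that is linear below 1) in each cell class of the hepatic library (red) and the thymic library (blue), with exact Poisson 95% intervals; open circles mark groups with no UMI. The γδT17-like rows lie farthest right in all 7 panels, and the thymic C1-like row led by Slc35d1 comes next among thymic groups for Il17f (27.7 CPM), Il17re (47.0 CPM) and Rora (253 CPM).

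Against all other cells of the same library, the hepatic class was at least 2-fold higher for 7 of 7 members, where 6.72% of 9801 genes (those that reached 50 UMIs) were that much higher and 9.54% that much lower. In the thymus 5 members had 50 UMIs, and all 5 were at least 2-fold higher, against 8.35% of 9506 genes, while 21.3% were at least 2-fold lower. Thymic Il22 and Il23r fell under that minimum, with 5 and 39 UMIs. A gene that passes through its high group has to differ, so these counts describe where the members are and do not test it.

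Il17a, the cytokine that gives the subset its name, reached 1611 CPM (1562 to 1662) in hepatic γδT17-like cells from 4010 UMIs and 386 CPM (333 to 445) in thymic ones from 189 UMIs. Hepatic cycling cells followed at 243 CPM (192 to 303), and the 3 intervals did not overlap. All level and ratio intervals here take UMIs as independent, which they were not. In hepatic cycling cells 33 of the 79 Il17a UMIs lay in 1 cell. In γδT17-like cells the variance of Il17a over cells was 16.5 (hepatic) and 6.64 (thymic) times its mean. The spread between cells is thus wider than these intervals, and the order of these 3 groups was not tested. All other groups lay at or under 26.7 CPM, the value of the C8-like cells, a hepatic class with myeloid transcripts. After each cell was reduced to 1500 UMIs, Il17a was detected in 45.2% of hepatic γδT17-like cells (41.7% to 48.7%) and 23.8% of thymic ones (17.5% to 31.0%). Without that step the shares were 52.0% and 29.5%. Hepatic C5-like cells, a class led by Ccl4, Tyrobp and Gzmb that served as background with a median of 2698 UMIs, had Il17a in 2.02% of cells (3.61% with all UMIs). Thymic C3-like cells, with a median of 3095 UMIs, had it in 0 of 181 cells, which allows a share of cells with a UMI of up to 1.66% (3 of 181) at this depth.

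Il17f had the opposite order. It stood at 153 CPM (138 to 169) in hepatic and 349 CPM (299 to 406) in thymic γδT17-like cells, from 380 and 171 UMIs. The share of cells with a UMI did not show this order beyond counting error, at 14.4% (12.1% to 17.1%) and 17.6% (12.1% to 24.2%) after reduction to 1500 UMIs and 20.5% and 21.1% without it. Background was 0.0556% in hepatic C5-like cells. Hepatic cycling cells (43.0 CPM, 23.5 to 72.2) and the thymic C1-like cells led by Slc35d1 (27.7 CPM, 22.2 to 34.3) followed, and these neighbours overlapped.

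Il22 was found almost wholly in the hepatic library. Hepatic γδT17-like cells held 371 UMIs, 149 CPM (134 to 165), and thymic ones held 5 UMIs in 3 cells, 10.2 CPM (3.32 to 23.8). None of the other 4185 thymic cells had an Il22 UMI. In the C1-like groups a count of 0 allows up to 0.552 CPM (Igfbp4 group) and 0.979 CPM (Slc35d1 group). Detection after reduction to 1500 UMIs was 6.18% (4.60% to 8.09%) in the hepatic class, 1.16% (0.133% to 4.22%) in the thymic class and 0.197% in hepatic C5-like cells, and with all UMIs 7.95%, 1.81% and 0.393%. Reads of Il22 could be split with Iltifb, a near-identical neighbouring copy, which had 24 UMIs in hepatic γδT17-like cells, 1 in other hepatic cells and 0 in the thymus. The Il22 levels may therefore be low, by an amount that these counts do not give.

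The receptor genes were higher in thymic than in hepatic γδT17-like cells. Il23r, which encodes the chain that binds IL-23, reached 67.4 CPM (46.4 to 94.7) from 33 thymic UMIs and 44.2 CPM (36.3 to 53.3) from 110 hepatic UMIs, and these intervals overlapped. Il1r1, the signaling receptor of IL-1, reached 77.6 CPM (54.9 to 107) in thymic and 33.0 CPM (26.2 to 40.9) in hepatic cells. Il17re stood at 151 CPM (119 to 190) in thymic and 77.6 CPM (67.0 to 89.3) in hepatic cells. Neither of the last 2 pairs overlapped. Detection after reduction to 1500 UMIs was 8.95% thymic and 6.68% hepatic for Il23r, 10.9% and 4.94% for Il1r1, and 19.3% and 11.2% for Il17re, and with all UMIs 16.9% and 12.5%, 19.9% and 9.60%, and 31.9% and 20.7%. In hepatic C5-like cells the shares after reduction were 0.0481% for Il23r, 0.0277% for Il1r1 and 0.0524% for Il17re, and with all UMIs 0.107%, 0.0714% and 0.107%. In thymic C3-like cells Il23r and Il17re had 0 UMIs and Il1r1 was found in 0.469% (1.10% with all UMIs). Il23r had 0 UMIs in both thymic C1-like groups, in 1275 and 1141 cells, with the same limits as Il22.

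Rora was present in every group and graded between them. Its levels fell in the order hepatic γδT17-like (512 CPM, 484 to 540.5), thymic γδT17-like (359 CPM, 308 to 417) and thymic C1-like led by Slc35d1 (253 CPM, 235 to 271), with no overlap between neighbours. Thymic C3-like (171 CPM), hepatic C4-like (145 CPM) and the other thymic C1-like group (144 CPM) came next and overlapped one another. Hepatic C5-like cells were lowest, with 34.0 CPM (30.1 to 38.3), and overlapped the interferon-response cells next to them. Detection after reduction was 50.2% (46.7% to 53.8%) in hepatic and 36.6% (29.3% to 44.4%) in thymic γδT17-like cells, and 69.8% and 54.2% with all UMIs. C4-like cells, led by Socs2 and Cd40lg, had Rora in 18.0% (16.6% to 19.4%) of cells and C5-like cells of like depth (medians 2708 and 2698 UMIs) in 4.84% (4.08% to 5.70%), or 29.2% and 8.64% with all UMIs.

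Single cells differed widely in cytokine UMIs, whereas receptor UMIs were too few per cell to show whether cells differed. Among 792 hepatic γδT17-like cells, 380 had no Il17a UMI, 71 had 1, 94 had 2 to 4, 103 had 5 to 9 and 144 had 10 or more, up to 87 in a cell. The 80 highest cells held 54.0% of the hepatic Il17a UMIs. In the thymus 117 of 166 cells had none and 4 had 10 or more, up to 17. Il17f turned this around: 1 hepatic cell but 6 thymic cells had 10 or more UMIs, with maxima of 16 and 26, and the 17 highest thymic cells held 84.2% of its UMIs. Il22 was found in 63 hepatic cells, 11 of which had 10 or more UMIs, up to 28. By contrast no γδT17-like cell had more than 3 UMIs of Il23r or Il1r1 or more than 5 of Il17re. At this depth a cell without a receptor UMI cannot be called negative.

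**Figure D2:**
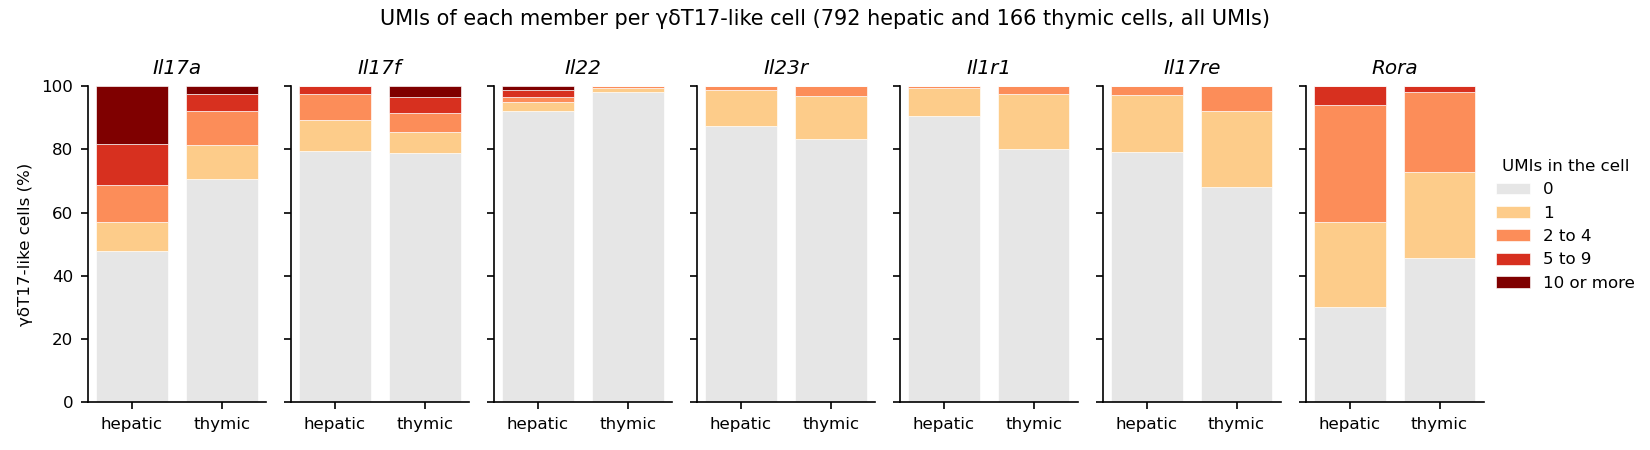
Share of γδT17-like cells (percent, vertical axis) by the number of UMIs of each member found in the cell, for 792 hepatic and 166 thymic cells with all UMIs. High-count cells (dark red, 10 or more UMIs) are frequent for hepatic Il17a, present for thymic Il17f and hepatic Il22, and absent for the receptor genes.

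Between tissues, γδT17-like cells differed by cytokine. Il17a was 4.17-fold higher in hepatic cells (3.61 to 4.86), Il22 14.6-fold (6.20 to 45.2) and Rora 1.42-fold (1.21 to 1.68). Thymic cells were higher for Il1r1 by 2.36-fold (1.56 to 3.50), Il17f by 2.29-fold (1.90 to 2.75), Il17re by 1.95-fold (1.47 to 2.56) and Il23r by 1.52-fold (1.00 to 2.27). Thus 2 of 7 members were at least 2-fold higher in the liver, where 6.3% of 5223 genes were, and 2 of 7 at least 2-fold lower, where 2.11% were. Over those genes the median ratio was 0.981, and the median over the 7 members was 0.656. Fewer transcribing cells and fewer transcripts per cell both lower a CPM. For Il17a the detected share and the count per positive cell (median 6 hepatic and 2 thymic UMIs) were both higher in the liver, whereas for Il17f the shares overlapped and the median positive cell had 2 hepatic and 3 thymic UMIs. Il17f made up 8.66% (7.84% to 9.53%) of the Il17a and Il17f UMIs of hepatic and 47.5% (42.2% to 52.8%) of those of thymic γδT17-like cells. With the cells of highest Scrublet (doublet) scores left out, thymic Il17f fell to 284 CPM and its hepatic over thymic ratio rose from 0.437 to 0.575, within 2-fold. The upper end of the Il23r ratio (0.656, 0.441 to 0.999) passed 1 under some alternatives, up to 1.07.

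**Figure D3:**
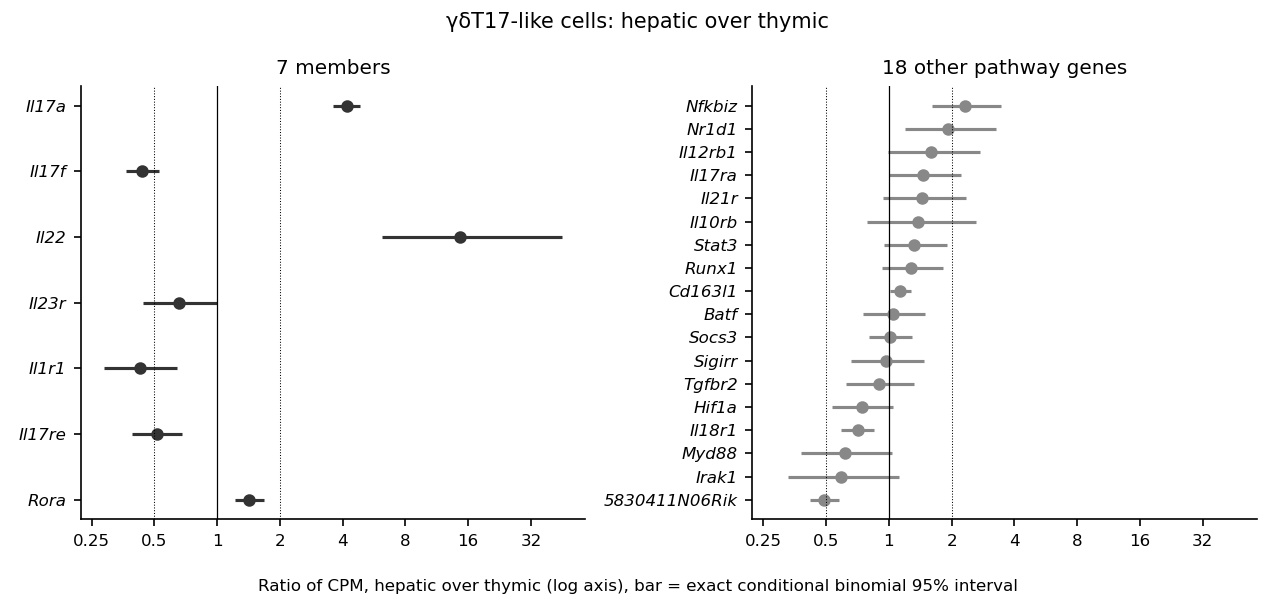
Ratio of CPM between hepatic and thymic γδT17-like cells (log axis) for the 7 members and for 18 other pathway genes with at least 50 UMIs, with exact conditional binomial 95% intervals; dotted lines mark 0.5 and 2. Il17a (4.17) and Il22 (14.6) lie right of 2, Il17f (0.437) and Il1r1 (0.425) left of 0.5, and all but 2 of the other genes, Nfkbiz and 5830411N06Rik, between the dotted lines.

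Co-detection was examined within γδT17-like cells. Il17f was found in 114 of 412 hepatic cells with Il17a (27.7%, 23.4% to 32.3%) and in 48 of 380 cells without it (12.6%, 9.46% to 16.4%). In thymic cells the shares were 17 of 49 (34.7%, 21.7% to 49.6%) and 18 of 117 (15.4%, 9.38% to 23.2%), where the intervals overlapped. Hepatic cells with Il17a were deeper, at a median of 2904.5 against 2568.5 UMIs, and with 1500 UMIs per cell the hepatic shares were 20.1% (16.1% to 24.7%) and 9.76% (7.13% to 12.9%). Thymic cells with Il17a were the shallower ones, at 2590.0 against 2929 UMIs, and their shares after reduction were 30.1% (16.6% to 46.8%) and 13.6% (8.19% to 20.9%). Rora was found in 76.5% (72.1% to 80.5%) of hepatic cells with Il17a and 62.6% (57.6% to 67.5%) of those without, and after reduction in 55.2% (49.9% to 60.5%) and 46.1% (41.3% to 50.9%), where the intervals overlapped.

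No excess of cells with both Il22 and Il17f was detectable. Il22 occurred in 7.41% (3.89% to 12.6%) of hepatic cells with Il17f and in 8.10% (6.09% to 10.5%) of those without. With Il17a it was found in 10.2% (7.45% to 13.5%) and without it in 5.53% (3.45% to 8.32%), and these intervals overlapped. Only 9 hepatic cells had all 3 cytokines and none of the thymic cells did, whereas 314 hepatic and 99 thymic cells had none of the 3. Il1r1 was found in 16 of 63 hepatic cells with Il22 (25.4%, 15.3% to 37.9%) and in 8.23% (6.34% to 10.5%) of the other 729. With 1500 UMIs per cell the shares were 12.0% (4.49% to 24.5%) and 4.48% (3.11% to 6.22%), which overlapped, and cells with Il22 were deeper (3258 against 2683 UMIs). In thymic cells Il1r1 accompanied Il17a, at 34.7% (21.7% to 49.6%) against 13.7% (8.02% to 21.3%), but after reduction the shares of 21.2% (9.82% to 37.1%) and 7.74% (3.74% to 13.9%) overlapped. Il23r and Il17re did not differ beyond their intervals between cells with and without Il17a in either library. No cell had all 7 members, and 80 hepatic and 24 thymic γδT17-like cells had none.

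**Figure D4:**
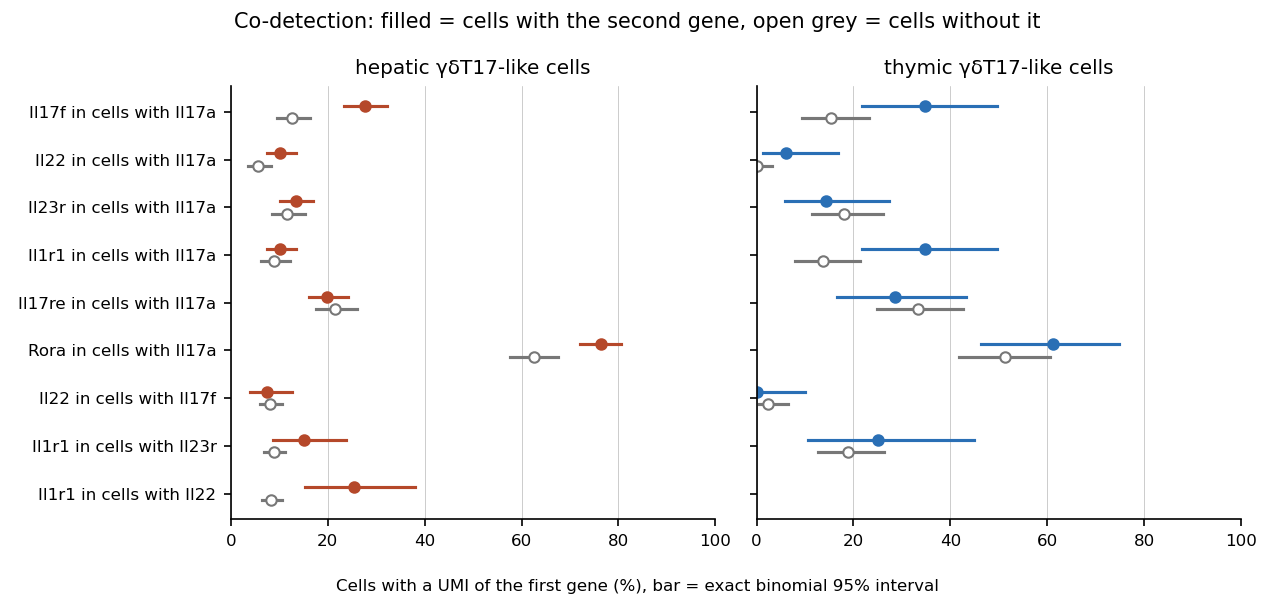
Share of γδT17-like cells with a UMI of the first-named gene (percent, horizontal axis) among cells with the second gene (filled circles) and without it (open grey circles), with all UMIs and exact binomial 95% intervals; groups under 20 cells are left out. The intervals separate for Il17f with Il17a, Rora with Il17a and Il1r1 with Il22 in hepatic cells, and for Il1r1 with Il17a in thymic cells.

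The γδT17-like cells split by 2 scavenger receptor genes, Cd163l1 and 5830411N06Rik, neither of which was used in clustering or naming. In the liver 5830411N06Rik had 559 UMIs inside and 88 outside the class, but in the thymus it had 224 inside and 3962 outside and was found in 750 of the 1141 C1-like cells led by Slc35d1, so that its CPM inside the class was 55.3-fold (44.1 to 70.1) that of the other hepatic cells but 1.91-fold (1.67 to 2.19) that of the other thymic cells. In the liver 388 cells (49.0%) had UMIs of Cd163l1 alone, 219 (27.7%) of 5830411N06Rik alone, 42 of both and 143 of neither. In the thymus 49 cells (29.5%) had Cd163l1 alone and 82 (49.4%) had 5830411N06Rik alone. Il22 lay almost wholly in hepatic cells with Cd163l1 alone, which held 343 of the 371 UMIs at 265.5 CPM (238 to 295). Cells with 5830411N06Rik alone held 16 UMIs at 24.0 CPM (13.7 to 39.0), an 11.1-fold difference (6.71 to 19.6), and the 42 cells with both genes held 0. Hepatic Il1r1 was also higher in cells with Cd163l1 alone, by 2.54-fold (1.35 to 5.18), whereas the thymic ratio was 0.897 (0.385 to 1.98), at 70.8 against 78.9 CPM.

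In both tissues Il17f was higher in cells with 5830411N06Rik alone than in cells with Cd163l1 alone. Cells with 5830411N06Rik alone had 243 CPM (207 to 284) in the liver and 519 CPM (432 to 619) in the thymus, and cells with Cd163l1 alone had 79.0 CPM (64.4 to 95.9) and 45.0 CPM (18.1 to 92.8). The difference was 3.08-fold (2.39 to 3.99) in hepatic and 11.5-fold (5.43 to 29.3) in thymic cells. Il17a was nearer to even, at 1823 CPM (1750.2 to 1898) with Cd163l1 alone against 1390.0 CPM (1302 to 1482) in the liver, and 354 CPM (267 to 460.5) against 453 CPM (372 to 546) in the thymus, where the intervals overlapped. Rora was higher in cells with Cd163l1 alone, by 1.60-fold (1.38 to 1.85) in the liver and 1.41-fold (1.00 to 1.97) in the thymus. Il23r and Il17re did not differ beyond their intervals in either tissue. The tissue difference in Il17a was present within both kinds of cells, 5.15-fold (3.95 to 6.86) for Cd163l1 and 3.07-fold (2.52 to 3.78) for 5830411N06Rik. Il17f was higher in thymic cells by 2.13-fold (1.68 to 2.71) among those with 5830411N06Rik alone. Among cells with Cd163l1 alone the hepatic value was 1.75-fold the thymic one (0.821 to 4.47), from 7 thymic UMIs. Hepatic Il22 was 20.6-fold higher (5.67 to 171) with Cd163l1 alone but 1.93-fold (0.552 to 10.3) with 5830411N06Rik alone. In the same order, thymic Il1r1 was 1.55-fold (0.734 to 2.98) and 4.38-fold (2.02 to 9.896) higher. Thymic Il23r was 2.397-fold (1.25 to 4.32) and 1.19-fold (0.549 to 2.41) higher. Intervals of Rora and Il17re left out 1 only with Cd163l1 alone. For these genes the 2 intervals overlapped, and the second ratio of Il22, Il1r1 and Il23r rests on under 50 UMIs. Thymic Il17f did not track 5830411N06Rik over all groups. It was highest in the 17 thymic cells with neither gene, at 738 CPM (505 to 1042) from 32 UMIs in 5 cells. The 18 thymic cells with both genes had 140 CPM (56.3 to 288). Hepatic cells with both genes had 328 CPM (244 to 433) of Il17f and those with neither 175 CPM (135 to 222). Detection of either scavenger gene also depends on depth, with medians of 2966.5 and 2609 UMIs in the hepatic groups.

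**Figure D5:**
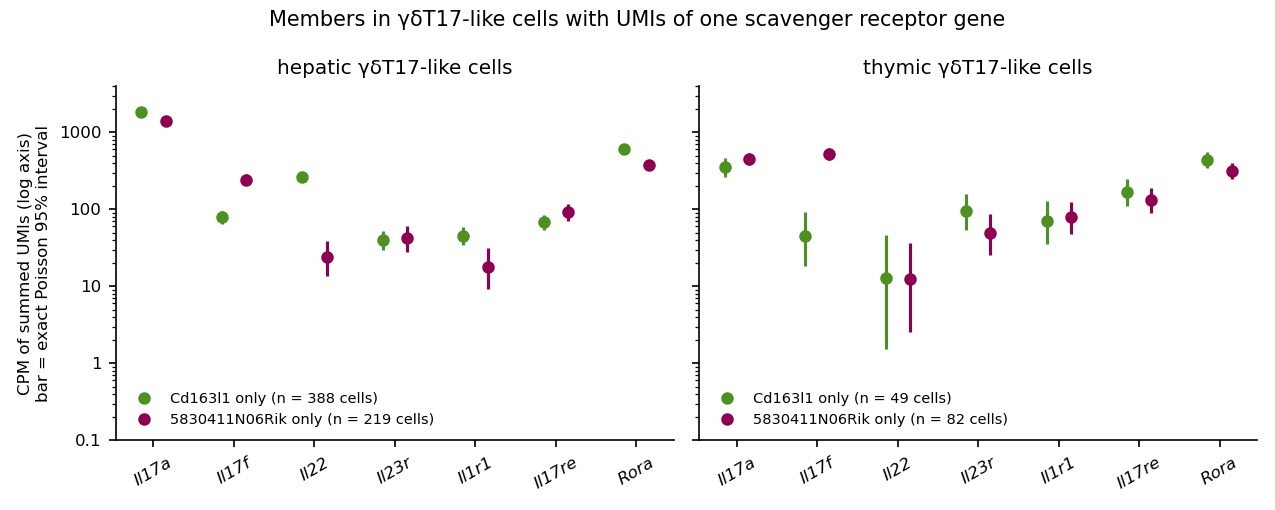
Level of each member (CPM, log axis) in γδT17-like cells with UMIs of Cd163l1 alone (green) or of 5830411N06Rik alone (purple), for each library, with exact Poisson 95% intervals. Il22 (265.5 against 24.0 CPM) and Il17f (79.0 against 243 CPM) separate in opposite directions in hepatic cells, and Il17f (45.0 against 519 CPM) separates in thymic cells.

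Outside the γδT17-like class, thymic C1-like cells also held member UMIs. C1-like cells, which carry markers of immature thymocytes such as Cd24a and Hes1, fell into a group led by Igfbp4 and Tox2 (1275 cells, median 4048 UMIs) and a group led by Slc35d1 and Lars2 (1141 cells, median 2586 UMIs). The second group had Il17f at 27.7 CPM (22.2 to 34.3) against 3.31 CPM (1.96 to 5.23) in the first, and Il17re at 47.0 CPM (39.6 to 55.3) against 3.13 CPM (1.82 to 5.01). Il17f was found in 2.72% (1.86% to 3.84%) and 0.352% (0.105% to 0.856%) of cells after reduction, or 4.29% and 0.706% with all UMIs. Il17re was found in 6.35% (5.01% to 7.93%) and 0.464% (0.169% to 1.01%) of cells after reduction, or 10.1% and 1.33% with all UMIs. Il1r1 was spread over both, at 8.81 CPM (5.80 to 12.8) and 11.4 CPM (8.75 to 14.6). Il17a had 3 UMIs in the second group, so that Il17f made up 96.6% (90.4% to 99.3%) of the Il17a and Il17f UMIs there. Il22 and Il23r had 0 UMIs in both groups. Within the second group, Il17f was found in 49 cells, of which 9 also had Il17re (18.4%, 8.76% to 32.0%), against 9.71% (8.02% to 11.6%) of the cells without Il17f.

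Hepatic cycling cells were few, deep (median 6666 UMIs) and contained Il17a. Of 44 such cells, 5 had 2 or more Il17a UMIs and held 75 of the 79. Of these 5, 4 had at least 3 of the 6 γδT17 naming markers, as had 4 of the other 39. The 5 cells were deeper, at a median of 8802 against 6564 UMIs, and the part of depth in this was not tested. Cycling cells held 79 of the 342 Il17a and 14 of the 26 Il17f UMIs outside the class. Among 538 thymic cycling cells Il17a had 4 UMIs and Il17f 27.

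In the hepatic C3-like, C4-like, C5-like and C7-like cells Il17a was low, between 9.66 CPM in C3-like and 13.0 CPM in C5-like cells, and all 4 intervals overlapped. Of 254 hepatic cells outside the γδT17-like class with an Il17a UMI, 15 had 2 or more. Il17f made up 3.77% (1.04% to 9.38%) of the Il17a and Il17f UMIs of hepatic C4-like cells. The share was 2.83% (0.588% to 8.05%) for C5-like cells and 5.41% (0.661% to 18.2%) for C3-like cells, against 8.66% (7.84% to 9.53%) inside the class, and all these intervals overlapped. Il22 made up 4.67%, 9.65% and 16.7% of the Il17a and Il22 UMIs in these classes, against 8.47% inside. C7-like cells had 6 Il22 UMIs against 10 of Il17a (37.5%, 15.2% to 64.6%), and 1.23% of them (0.282% to 3.38%) had Il22 after reduction, or 2.21% with all UMIs. RNA free in the suspension can give UMIs in cells that do not express a gene, and its part in these low values was not tested. Outside the class in the thymus, Il17f made up 84.6% (78.0% to 89.9%) against 47.5% inside.

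Most other genes of the pathway lay within 2-fold between tissues, as did most genes of any kind. Of 41 listed genes, 18 had at least 50 UMIs over hepatic and thymic γδT17-like cells, and the median of their ratios was 1.09. Of these 18, 1 was at least 2-fold higher in the liver and 1 at least 2-fold lower, beside 6.3% and 2.11% of 5223 genes. Nfkbiz, which encodes an IκB family protein that takes part in type 17 responses, was 2.32-fold higher in the liver (1.60 to 3.46). 5830411N06Rik was 2.04-fold higher in the thymus (1.74 to 2.38), and the other 16 lay within 2-fold, among them the shared receptor chain Il17ra (1.46, 0.996 to 2.22), Stat3 (1.33, 0.945 to 1.91) and the transcription factor gene Runx1 (1.28, 0.925 to 1.82). Among the 16, the intervals of Nr1d1 (1.92, 1.19 to 3.25), Il18r1 (0.707, 0.590 to 0.852) and Cd163l1 (1.14, 1.01 to 1.28) left out 1. Il17b, Il17c, Il17d and Il25, the other cytokines of the family, had no UMI in either library.

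Compared with other cells of the same library, 8 of 28 pathway genes with 50 UMIs were at least 2-fold higher in hepatic γδT17-like cells and 5 at least 2-fold lower, beside 6.72% and 9.54% of all genes. In the thymus 6 of 25 were higher and 4 lower, beside 8.35% and 21.3% of all genes. Cd163l1 was among the higher genes in both libraries, at 33.9-fold (30.7 to 37.6) and 8.35-fold (7.37 to 9.44), and 5830411N06Rik in the liver. Both had been listed as scavenger receptors of γδT17 cells, and the list was chosen with earlier results of these data known. These counts therefore describe where the listed genes are and do not test it. Il18r1, a receptor chain for IL-18, was 7.02-fold higher in the liver (6.26 to 7.86) and 32.4-fold in the thymus (25.8 to 40.7). Il12rb1, the chain that pairs with the Il23r product, was 2.07-fold (1.72 to 2.47) and 2.06-fold higher (1.22 to 3.27). Irf4, a transcription factor of type 17 differentiation, was 4.18-fold higher in the liver (2.71 to 6.33), and Csf2, the gene of the cytokine GM-CSF, 3.38-fold (1.88 to 5.84). Il21r was lower in both, at 0.264 (0.225 to 0.307) and 0.431 (0.272 to 0.648) of the level in other cells, as was Ahr, a ligand-activated transcription factor linked to IL-22, at 0.423 (0.298 to 0.583) and 0.314 (0.143 to 0.599).

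Across the 15 groups, the genes outside the members whose log2(CPM + 10) followed a member most closely were Kcnk1 for Il17a (Pearson r = 0.977), Ccr6 for Il17f (r = 0.939) and for Il23r (r = 0.982), Stmn2 for Il22 (r = 0.876), Pde5a for Il1r1 (r = 0.937) and Tmem64 for Rora (r = 0.895). They are descriptions over groups that share libraries and clusters, and Ccr6 was a naming marker. Between members, r was highest for Il17f with Il23r (0.944) and lowest for Il17a with Rora (0.553).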

How the data were processed

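The authors sequenced 10x 3′ libraries of sorted hepatic and thymic γδ T cells, and the deposited files hold raw UMI counts per gene and barcode, made with Cell Ranger on mm10 per the submitters' notes, which also name Seurat 3.0. Counts were normalized and scaled in Seurat for clustering only. Levels, shares and ratios were computed from the raw UMIs, with each library counted apart. Cells with 800 to 4000 genes and at most 6% mitochondrial UMIs were kept and clustered together in Seurat 5.3.0 (R 4.3.3) with 2000 variable genes, of which 1981 remained after the members and pathway genes were removed, 30 principal components and resolution 0.6. Clusters were named from fixed markers by their mean log2 ratio over other cells. Levels are summed counts scaled to 1000000 UMIs of the group (CPM) with exact Poisson 95% intervals, shares are exact binomial, and ratios are conditional binomial (Python 3.11.15, scipy 1.17.1). Shares at 1500 UMIs are expected over all random draws, with the interval taken at the expected number of cells. Ratios required 50 UMIs over both groups, except those within cells split by Cd163l1 and 5830411N06Rik. Barcodes called doublets were kept, since the Scrublet threshold marked only 4 hepatic and 1 thymic cell (scanpy 1.11.5). Scripts were tested on simulated data. The members, the lists and the naming limits were chosen with earlier results of these data known. All 7 members and genes of the fixed pathway list were named, with the 3 genes most like each member computed and the first given. A gene is not reported here. Promoter sequences come from RefSeq (GRCm38.p6), coordinates from the GRCm38 annotation. PCR duplicates were removed through UMIs, and intervals cover counting error only. Alternatives to clustering, filters, doublets, scaling and depth were computed.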

Additional observations from a re-analysis of the deposited data

Results flagged for a closer look

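Member UMIs were also present in barcodes outside the gene and mitochondrial limits, which enter no comparison above. The 583 hepatic barcodes left out held 872926 UMIs, among them 125 of Il17a (143 CPM, 119 to 171), 48 of Il17f (55.0 CPM, 40.5 to 72.9), 124 of Rora (142 CPM, 118 to 169), 15 of Il17re (17.2 CPM, 9.62 to 28.3), 7 of Il23r and 6 of Il1r1. The 190 thymic barcodes left out held 306910 UMIs, among them 5 of Il17a, 12 of Il17f (39.1 CPM, 20.2 to 68.3), 37 of Rora (121 CPM, 84.9 to 166) and 6 of Il17re. Each count was above the limit of 3 that a count of 0 allows. Most of these barcodes had under 800 genes, 548 hepatic and 181 thymic.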

How the results depend on the processing

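No member's difference between tissues turned direction under the 14 alternatives, with hepatic over thymic ratios of 4.02 to 4.52 for Il17a, 14.1 to 15.4 for Il22, 1.38 to 1.45 for Rora, 0.376 to 0.575 for Il17f, 0.410 to 0.455 for Il1r1, 0.497 to 0.531 for Il17re and 0.633 to 0.687 for Il23r. The Il17f ratio of 0.575 came with the cells of highest Scrublet scores left out, and the cause was not tested. Il17re passed the 2-fold limit under some settings (0.497) and not at 0.513. The class held 709 to 846 hepatic and 155 to 179 thymic cells, outside the setting of 2500 UMIs. Leaving out barcodes that occur in both libraries was chosen after seeing the data and moved no value beyond its interval. With 1 library per tissue no replicate could be left out. No paired analysis was possible because the groups hold 1 library each.

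With totals taken without mitochondrial and ribosomal-protein genes, which raises every CPM by construction, hepatic and thymic levels were 2262 and 559.8 CPM for Il17a, 214 and 507 for Il17f, 46.2 and 113 for Il1r1, 62.0 and 97.7 for Il23r, 109 and 219 for Il17re and 718 and 521 for Rora, and hepatic Il22 was 209. With cells taken by at least 3 naming markers and no clustering, hepatic levels were 1295 CPM for Il17a, 119 for Il17f, 125 for Il22, 35.9 for Il23r, 66.3 for Il17re and 456 for Rora, thymic Il17a was 291 CPM, the hepatic shares at 1500 UMIs were 38.7% for Il17a and 11.3% for Il17f, Il17f was found in 8.78% of hepatic cells without Il17a, and the Il17a ratio of cells with Cd163l1 alone over 5830411N06Rik alone was 1.54. With the cells of highest Scrublet scores left out, hepatic Il17a was 1781 CPM, Il22 174 and Rora 549, and thymic Il17f 284. The mean of the cells' own CPM was 1667 for hepatic Il17a and 171 for hepatic Il17f, and cells reduced to 1500 UMIs gave 1673 for Il17a and 572 for Rora.

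Shares followed depth. Without reduction the hepatic shares were 52.0% for Il17a, 20.5% for Il17f, 12.5% for Il23r, 9.60% for Il1r1, 20.7% for Il17re and 69.8% for Rora, and the thymic ones 16.9% for Il23r, 19.9% for Il1r1, 31.9% for Il17re and 54.2% for Rora. At 1000 UMIs they were 40.7% for Il17a, 11.1% for Il17f, 4.53% for Il23r, 3.32% for Il1r1, 7.66% for Il17re and 38.6% for Rora in the liver and 27.6% for thymic Rora. At 2500 UMIs, which leaves 489 hepatic and 107 thymic cells, they were 54.4% for Il17a, 9.89% for Il22, 10.5% for Il23r, 9.10% for Il1r1, 18.3% for Il17re and 66.0% for Rora in the liver, and 15.6% for Il23r, 30.1% for Il17re and 53.3% for Rora in the thymus. Co-detection at 1500 UMIs fell to 20.1% for Il17f with Il17a, 12.0% for Il1r1 with Il22 and 4.48% for Il1r1 without Il22.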
